A study of Homo sapiens with 4 samples.

Results

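An AP-1 site was found in 9681 of the 60886 accessible regions of MCF10A and G12V cells (15.9%, 95% Wilson interval 15.6 to 16.2%). ATAC-seq reads open DNA from the cuts that a Tn5 transposase makes in it, and clusters of cuts are called as peaks. MCF10A (labelled Parental) is an established line of human mammary epithelium that is immortal without being transformed, and G12V cells (labelled H-RAS Gv12) are the same line after lentiviral introduction of HRAS with the G12V change and hygromycin selection. A GFP vector was introduced alongside, and the paper reports that the cells arrested and resumed growth weeks later. No vector control was among the libraries, so the cell types differ by all of these steps. All cells were grown in medium with EGF, insulin, hydrocortisone, cholera toxin and horse serum, so an EGF receptor ligand was present in both groups. There were 2 libraries of each cell type, and whether the G12V cells came from 1 clone is not given in the sources used here. Overlapping peaks of the 4 lists were merged into regions. A region was a member when the 150 bp of hg19 at the midpoint of its best-ranked peak held TGACTCA or TGAGTCA, which are the same site read on opposite strands. A region was gained when G12V replicates 1 and 2 both called it and no MCF10A library did, lost in the reverse case, and constant when all 4 libraries called it.

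AP-1 is a dimer of FOS and JUN family proteins, in some cases with ATF or BATF partners, that binds this palindrome-like site. Many FOS and JUN genes respond rapidly to growth factors, and signaling from RAS through RAF, MEK and ERK raises their expression and activity. AP-1 sites are common in enhancers of epithelial cells, where the factor acts with cell type specific partners and with TEAD proteins.

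The peak number stood in for depth, since the lists give no reads. The lists held 12888 peaks for MCF10A replicate 1 and 34463 for MCF10A replicate 2. For G12V they held 14042 and 46673 peaks. Replicate 2 had the longer list in both cell types, and a locus just under the calling threshold looks absent in a short list. Of 8 mammary epithelial markers, a promoter peak was found at ITGB4 (both MCF10A libraries) and KRT17 (MCF10A replicate 1), whereas the promoters of KRT5, KRT14, KRT18, TP63, CDH1 and EPCAM had none at their outermost annotated start. None of 8 markers of blood, vessel, liver, nerve, muscle and glial lineages had a promoter peak in any library. HRAS had 10 regions within 100 kb of its start, none with an AP-1 site, and peaks cannot show whether the introduced copy was expressed.

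The sequences below were read from hg19 on the plus strand, with every AP-1 site in capitals. The gained regions shown are those with the highest score ranks in both G12V libraries. One lay in a coding exon of FBXO38, which encodes an F-box protein, another 886061 bp from the start of SOX11, and another 109538 bp from the start of the interferon gene IFNE.
gained region in FBXO38, chr5:147796616-147796765: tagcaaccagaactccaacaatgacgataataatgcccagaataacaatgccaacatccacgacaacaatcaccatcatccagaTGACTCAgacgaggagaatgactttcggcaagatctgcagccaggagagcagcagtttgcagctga
gained region on chromosome 2, chr2:4946380-4946529: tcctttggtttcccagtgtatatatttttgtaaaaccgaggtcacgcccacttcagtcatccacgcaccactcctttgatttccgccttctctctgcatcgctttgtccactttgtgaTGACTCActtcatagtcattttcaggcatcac
gained region on chromosome 9, chr9:21591775-21591924: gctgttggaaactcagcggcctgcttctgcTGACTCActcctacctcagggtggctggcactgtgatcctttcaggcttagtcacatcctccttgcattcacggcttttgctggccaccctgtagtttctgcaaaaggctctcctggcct

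The best-ranked lost regions lay 625687 bp from the start of CHSY3, 31595 bp from that of METTL21EP, and in an intron of the non-coding gene LINC02608. They are shown to set their sites beside those of the gained regions.
lost region on chromosome 5, chr5:129865770-129865919: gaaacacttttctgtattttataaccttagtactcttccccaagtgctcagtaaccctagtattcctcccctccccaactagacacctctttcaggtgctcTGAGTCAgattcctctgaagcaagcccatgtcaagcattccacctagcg
lost region on chromosome 13, chr13:103563910-103564059: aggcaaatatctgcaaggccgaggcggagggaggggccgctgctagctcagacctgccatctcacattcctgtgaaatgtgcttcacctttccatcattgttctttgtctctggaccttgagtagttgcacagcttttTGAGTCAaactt
lost region in LINC02608, chr1:212434611-212434760: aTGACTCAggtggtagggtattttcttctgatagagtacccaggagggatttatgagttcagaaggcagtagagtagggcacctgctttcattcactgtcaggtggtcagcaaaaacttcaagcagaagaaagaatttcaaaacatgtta

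Of the best-ranked constant regions, one lay at the promoter of ETFDH, which encodes a mitochondrial electron carrier, where C4orf46 also lies. It is shown as a site in a region called in every library.
constant region at the ETFDH promoter, chr4:159593065-159593214: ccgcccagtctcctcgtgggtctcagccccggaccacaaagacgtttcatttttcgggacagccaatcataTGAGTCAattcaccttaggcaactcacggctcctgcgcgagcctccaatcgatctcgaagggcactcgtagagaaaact

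A window in an intron of the WNT ligand gene WNT9A held 4 sites (percentiles 65.8 to 77.2 in 3 lists) and is shown to set multiple sites beside the usual single one. Its 4 sites lie in near-copies of a short repeated stretch, so they are not separate occurrences in unrelated sequence. A window in an intron of the cadherin gene CDH18 also held 4 (32.2 to 81.3 in 3 lists).
region with 4 sites in WNT9A, chr1:228122728-228122877: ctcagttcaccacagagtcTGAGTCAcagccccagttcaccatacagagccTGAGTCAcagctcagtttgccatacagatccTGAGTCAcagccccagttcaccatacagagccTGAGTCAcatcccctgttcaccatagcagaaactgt

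LAMB3 encodes the beta chain of laminin-332, and its promoter region is shown as the listed-gene promoter with an AP-1 site called in most libraries.
LAMB3 promoter region, chr1:209826370-209826519: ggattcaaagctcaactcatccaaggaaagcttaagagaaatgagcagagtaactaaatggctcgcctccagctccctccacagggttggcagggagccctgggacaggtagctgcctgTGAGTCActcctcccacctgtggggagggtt

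The gained region in FBXO38 had scores at percentiles 90.9 and 93.3 of the G12V lists. The leading lost region, far from CHSY3, stood at percentiles 96.6 and 99.0 of the MCF10A lists. The constant region at the ETFDH promoter stood between percentiles 98.7 and 99.9 in the 4 lists. Other gained regions named by the same rule lay in an intron of CLVS1 (percentiles 84.2 and 92.2) and 14204 bp from the start of ATE1 (81.3 and 80.5). Other lost regions lay at the promoter of ZNF236-DT (92.1 and 95) and 612417 bp from the start of CSMD1 (88.5 and 95.1). The constant region nearest EFNB2, an ephrin ligand gene, ranged from 96.7 to 98.6, and that in an intron of CNIH3, with 2 sites, from 96.2 to 99.3.

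AP-1 sites were a feature of regions away from gene starts. Promoters were taken as the stretch around a gene's transcription start site (TSS) with 1000 bp on its upstream side and 500 bp on the other. Distal regions, which touched no promoter, held a site in 9238 of 49568 cases (18.6%, 18.3 to 19%). Promoter regions held one in 443 of 11318 (3.91%, 3.57 to 4.29%). The control motif, the same letters reversed without complementing (ACTCAGT or ACTGAGT), was found in 3.49% of distal and 1.4% of promoter regions, so the AP-1 share was 5.34 times the control share in distal and 2.80 times in promoter regions. Beyond 100 kb from any TSS the AP-1 share was 20.2% (19.4 to 21.0%). All such intervals cover counting error only.

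This place in the genome was seen in every library. Promoter regions made up 6.89% of the AP-1 regions of MCF10A replicate 1 and 5.27% of those of MCF10A replicate 2. In G12V they made up 7.95% and 4.66%. Among regions without a site the promoter share ran from 24% to 38.4%, so the groups of values did not overlap. The mean difference was -26.5 percentage points, lower in 4 of 4 libraries (exact two-sided sign-flip permutation test, p = 0.125, Benjamini-Hochberg adjusted p = 0.222 over 16 tests). Regions shared by libraries enter each of them. With 4 libraries 0.125 is the smallest p such a test can give, so it cannot reach 0.05. The median distance from a member to the nearest protein-coding TSS was 76809 bp, against 44003 bp for other regions, and among distal regions 80900 against 70365 bp. Of the members, 57.6% lay in introns, 36.6% were intergenic and 0.826% lay in coding exons, against 50.3%, 34.2% and 2.89% of the other regions.

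**Figure D1:**
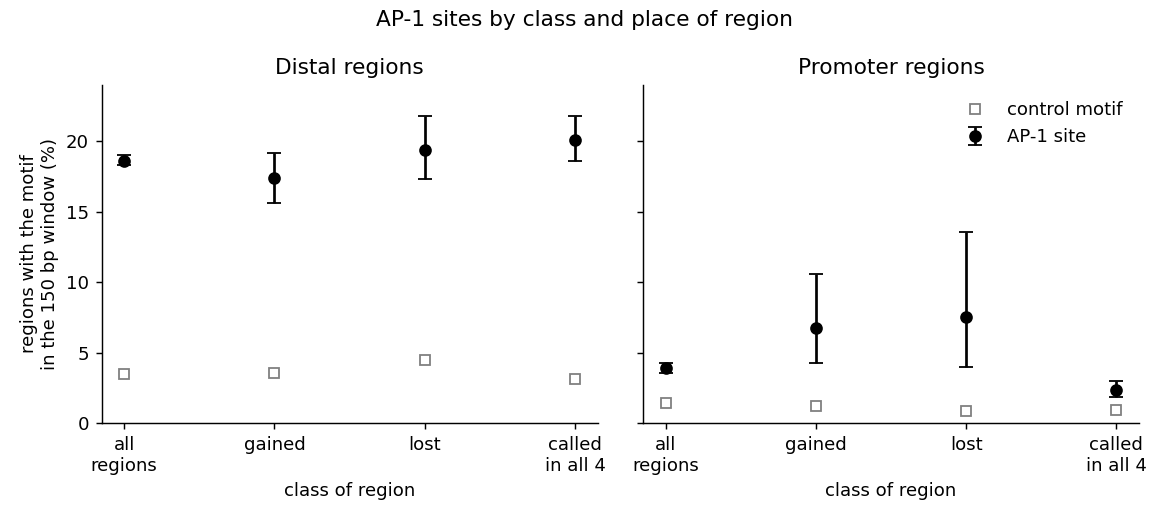
Share of regions with an AP-1 site (filled circles, 95% Wilson intervals) or the control motif (open squares) in the 150 bp window, in percent, for all, gained, lost and constant (called in all 4) regions at distal places and at promoters. Distal classes sit between 17.4% and 20.1% and promoter classes between 2.33% and 7.5%, and the control motif stays below 5% in each.

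AP-1 sites did not lie at the midpoints of the peaks. Around distal midpoints the density reached 1.86 sites per kb in the bin from 100 to 75 bp on the side of lower hg19 coordinates, 10.1 times the 0.183 sites per kb found 800 to 1000 bp away. In the 50 bp at the midpoint itself it was 1.46 sites per kb, or 7.96 times the flank. The control motif rose to 1.87 times its flank in its densest bin. At promoters the AP-1 density reached 2.83 times its flank.

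The displacement had the same sign and nearly the same size in every library. With each library's own peaks, the excess of AP-1 sites over the flank had its mean at -75.9 bp in MCF10A replicate 1, -73.4 bp in MCF10A replicate 2, -71.9 bp in G12V replicate 1 and -71.9 bp in G12V replicate 2. Of the sites within 400 bp, between 68.2% and 69.8% lay on the lower side. Matches to the CTCF motif, an unrelated factor, were displaced to the same side, with mean excess between -54.6 and -44.5 bp. The stated shift size of the peak caller was 75 bp, and its part in the displacement was not tested.

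**Figure D2:**
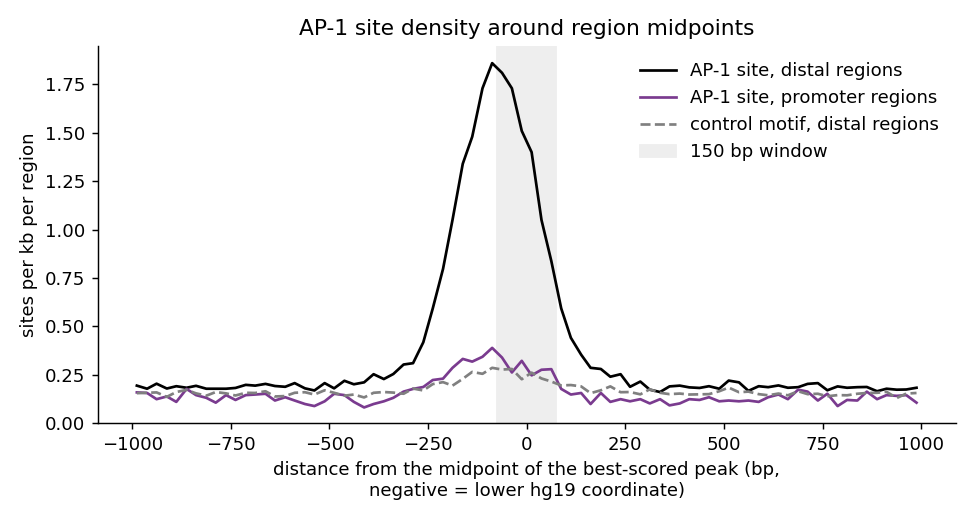
Sites per kb per region in 25 bp bins (vertical axis) by distance in bp from the midpoint of the best-scored peak (horizontal axis, negative towards lower hg19 coordinates), for AP-1 sites in distal (black) and promoter regions (purple) and the control motif in distal regions (dashed); the grey band is the 150 bp window. The distal AP-1 curve has its maximum of 1.86 left of the midpoint, from -100 to -75 bp.

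A window moved by 75 bp to lower coordinates, chosen after this profile was seen, held a site in 11649 regions (19.1%, 18.8 to 19.4%) with the control at 3.29%. Of the 9681 members, 5998 (62.0%) also held a site in the moved window, and 15332 regions (25.2%) held one in either window. The count of 9681 is therefore a count for the window as placed, and values of the moved window are given below where they turn a result. Within the member windows 59.8% of the 10434 sites lay on the lower side of the midpoint.

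The AP-1 share of the regions called did not separate the cell types. It was 13.6% in MCF10A replicate 1, 16.3% in MCF10A replicate 2, 12.6% in G12V replicate 1 and 16.5% in G12V replicate 2. The values followed the replicate number, and the MCF10A values lay between the G12V values. The G12V mean was 14.6% ± 2.72 and the MCF10A mean 14.9% ± 1.93 (SD over 2 libraries), a difference of -0.377 percentage points that was below the replicate spread (exact permutation test, two-sided, p = 1.00). With 2 libraries a side the lowest p available is 0.333, so 0.05 cannot be reached. In distal regions the shares were 19.2% and 21.0% in MCF10A and 17.7% and 19.8% in G12V. G12V was lower within each replicate number, but the ranges overlapped (difference -1.33 percentage points, exact permutation p = 0.667). With lists of equal length the distal shares were 18.2% in G12V and 19.2% in MCF10A for replicate 1 and 23.7% and 23.5% for replicate 2, so that order was not kept. The control share ran from 2.52% to 3.15%.

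**Figure D3:**
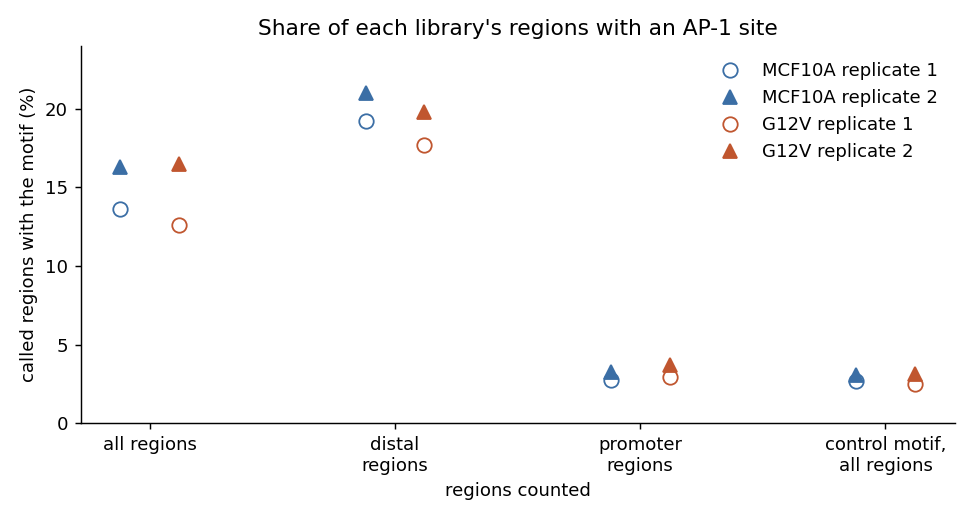
Share of each library's called regions with an AP-1 site, in percent, over all, distal and promoter regions, and with the control motif over all regions. Circles are replicate 1, triangles replicate 2, blue MCF10A and orange G12V; in all regions both replicate 2 libraries (16.3% and 16.5%) sit above both replicate 1 libraries (13.6% and 12.6%).

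In the window as placed, members were gained about as often as accessible regions in general, and their lost share lay slightly above that of all regions. There were 312 gained members, 3.22% of 9681 (2.89 to 3.59%), where 3.20% of all regions were gained. There were 239 lost members, or 2.47% (2.18 to 2.80%), an interval just above the 2.14% of all regions that were lost. Among distal regions the interval of the lost share (2.19 to 2.83%) included the background of 2.39%. In the moved window 383 of 11649 regions with a site were gained and 248 lost, and the lost share no longer lay above the background. With a peak in either G12V library and none in MCF10A, 3922 members were counted (40.5%, against 40.9% of all regions), and 1912 had a peak in MCF10A alone (19.8%, against 20.8%). Over all regions these shares lay near the background. Among distal regions both shares lay below the background. There 3777 distal members were called in G12V alone (40.9%, 39.9 to 41.9%, against 45.8% of all distal regions) and 1835 in MCF10A alone (19.9%, 19.1 to 20.7%, against 22.5%). Gained made up 56.6% of gained and lost members (52.5 to 60.7%) and 60.6% of gained and lost regions without a site (58.8 to 62.5%). With lists of equal length 250 members were gained and 260 lost, so the excess of gained over lost members was not kept.

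Members were less often constant over all regions, which was not seen among distal regions. The 544 constant members made up 5.62% (5.18 to 6.10%), where 8.36% of all regions were called in all 4 libraries. Away from promoters 481 of 9238 distal members were constant (5.21%, 4.77 to 5.68%), an interval that includes the 4.82% of all distal regions. Of the distal members 295 were gained (3.19%, background 3.43%) and 230 lost (2.49%, background 2.39%).

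Read by class, the AP-1 share was 16% of gained (312 of 1951, 14.4 to 17.7%), 18.3% of lost (239 of 1303, 16.3 to 20.5%) and 10.7% of constant regions (544 of 5090, 9.87 to 11.6%). The gained share minus the lost share was -2.35 percentage points with a 95% Newcombe interval of -5.04 to 0.275, which includes 0. In the moved window it was 0.598 (-2.20 to 3.33), so its sign depended on where the window lay. Among distal regions the shares were 17.4% of gained, 19.4% of lost and 20.1% of constant regions. Gained minus constant was -2.77 (-5.16 to -0.335), and in the moved window -2.84 (-5.42 to -0.217). Lost minus constant was -0.683 (-3.40 to 2.14), an interval that includes 0, and in the moved window -4.11 (-6.92 to -1.19), one that does not. At promoters the site was found in 6.77% of gained (17 of 251), 7.5% of lost (9 of 120) and 2.33% of constant regions (63 of 2700). The intervals for gained (4.27 to 10.6%) and lost promoters (4.0 to 13.6%) both lay above that for constant ones (1.83 to 2.97%), as did that of the promoters in none of these classes (4.29%, 3.88 to 4.75%).

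The AP-1 share of distal regions was highest for regions found in both deep libraries. Regions called in replicate 2 of both cell types and in neither replicate 1 held a site in 1866 of 7637 cases (24.4%). Those called in replicate 1 alone held one in 10.3% for MCF10A and 8.07% for G12V, and those called in replicate 2 alone in 17.2% and 17.4%. The list that called a region thus went with a larger change in AP-1 share than the cell type did.

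Distal AP-1 regions were better ranked than other distal regions of the same list. Their median score percentile was 51.9 in MCF10A replicate 1, 49.8 in MCF10A replicate 2, 50.3 in G12V replicate 1 and 51 in G12V replicate 2, against 46.1, 44, 43.4 and 43.8 for distal regions without a site. The difference of 6.43 percentile points had the same sign in 4 of 4 libraries (exact two-sided sign-flip permutation test, p = 0.125, the smallest possible, adjusted p = 0.222). Over all regions it was 0.229, higher in 2 of 4 libraries. By decile of score the distal AP-1 share climbed from 11.5% to 22.3% between the lowest and the ninth decile in MCF10A replicate 1 and from 13.9% to 24.9% in G12V replicate 2. It was lower again in the top decile of each list, at 18.6% and 21.8% in those libraries. Promoters made up 59.8% and 53% of all regions in those top deciles but are not counted in the distal share. Peak width gave no such order, with distal medians of 383 to 531 bp for members and 395 to 513 bp for other regions.

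**Figure D4:**
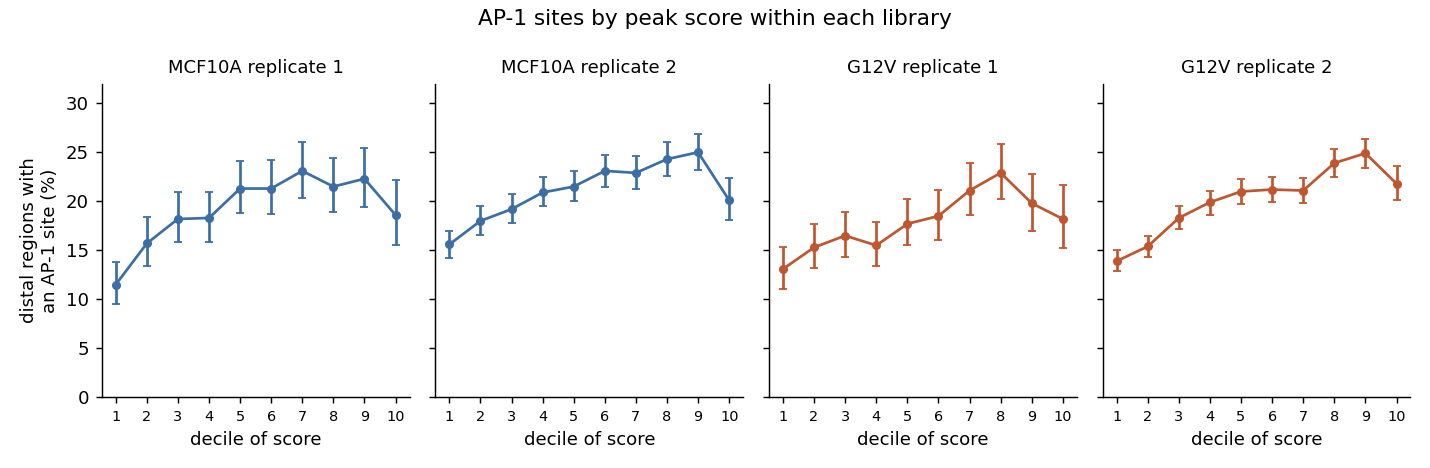
Share of distal regions with an AP-1 site, in percent with 95% Wilson intervals, by decile of peak score within each library (1 lowest, 10 highest). In all 4 libraries the share rises from between 11.5% and 15.6% in the lowest decile to a maximum in decile 7, 8 or 9 and is lower in the top decile.

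Distal members of the short lists were also found again more often in the long ones. Of the distal AP-1 regions of MCF10A replicate 1, 79.7% were called in MCF10A replicate 2, against 69.5% of its other distal regions. Of those of G12V replicate 1, 88.6% were called in G12V replicate 2, against 74.6%. In the other direction, from the long lists to the short ones, 24.1% against 23.5% recurred in MCF10A and 19.2% against 18.6% in G12V. Both directions count the same shared regions, so these are 2 overlaps seen from either side, and no test is given. Against the long list of the other cell type the shares were 74.3% of distal members and 63.0% of other distal regions for MCF10A replicate 1, and 69.4% and 55.9% for G12V replicate 1. The better score ranks of members go with this, and their part was not tested.

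Most member windows held a single site. One site was found in 8964 windows (92.6%), 2 sites in 686 (7.09%) and 3 or more in 31 (0.320%), with 5 the largest number. Windows with 2 sites made up 6.73% of gained (4.44 to 10.1%), 3.35% of lost (1.71 to 6.46%) and 10.7% of constant members (8.34 to 13.5%). The interval for constant members lay above that for lost members, and that for gained members overlapped both.

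The base next to the site differed between accessible and flanking DNA. Each site has a TGA at either end when read inward on its own strand, and the base before TGA lies outside the bases that defined the site. In member windows that base was A in 34.6%, G in 28.8%, C in 27.5% and T in 9.14% of 20868 cases. In sites 800 to 1000 bp away it was A in 24.5%, G in 24.5%, C in 28.7% and T in 22.2% of 8524. T was thus less frequent and A more frequent beside accessible sites. At the level of whole sites, 57.5% of 10434 member sites had an A before at least 1 TGA, against 42.6% of 4262 flanking sites, a difference of 14.9 percentage points (13.2 to 16.7). T before a TGA was found in 17.4% against 39.9%, a difference of -22.5 (-24.1 to -20.8).

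Sites in gained and lost members differed in this base. An A before a TGA was found in 203 of 335 sites in gained members (60.6%) and in 125 of 247 in lost members (50.6%), a difference of 9.99 percentage points (1.83 to 18.0). T was found in 12.2% of gained and 20.6% of lost sites, a difference of -8.41 (-14.7 to -2.37). Both TGA ends were preceded by A in 12.5% of gained (9.41 to 16.5%), 5.26% of lost (3.10 to 8.80%) and 9.34% of constant sites (7.28 to 11.9%). The base was chosen for this comparison after its values were seen, and the intervals treat sites as independent.

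Each replicate pair holds the gained and lost sites among its own, so neither is a separate sighting. In the replicate 2 pair G12V-only sites had A in 59.8% and MCF10A-only sites in 54.1%, a difference of 5.76 (3.06 to 8.47), and T differed by -4.33 (-6.53 to -2.21). In the replicate 1 pair the differences were 1.32 for A (-2.66 to 5.29) and -0.653 for T (-3.64 to 2.32), both with intervals that include 0. Gained minus constant sites differed by 6.50 for A (-0.111 to 12.9), which also includes 0. Over libraries the share of sites with A was 55.6% and 55.7% in MCF10A and 56.5% and 58.2% in G12V, both G12V values above both MCF10A values (means 57.3% ± 1.21 and 55.6% ± 0.0947, SD, n = 2 each, exact two-sided permutation test, p = 0.333, the smallest possible). In the moved window the gained minus lost difference was 11 for A (3.38 to 18.6) and -6.29 for T (-12.3 to -0.599), whereas T in gained minus constant sites went from -6.94 (-11.5 to -2.03) to -1.39 (-5.47 to 3.0), A in the same comparison was 6.08 (0.0960 to 11.9), and T in the replicate 1 pair turned to 0.603 (-2.08 to 3.27).

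Distal AP-1 windows held fewer sites of CTCF, the insulator protein, and of GC-rich motifs than other distal windows. Motifs were sought on both strands after the AP-1 sites had been masked, which also removes any match that overlaps them. Windows without a site have nothing masked, so the mask can only lower the shares of members, by an amount that was not measured. CTCF, by its consensus with up to 1 mismatch, matched 1.89% of distal members (1.64 to 2.19%) and 6.82% of other distal regions (6.57 to 7.07%), with 6.55% over all regions. In gained distal regions the shares were 2.03% with and 9.89% without an AP-1 site. GGGCGG, the core of SP and KLF sites, was found in 2.86% against 6.51% (12.8% over all regions). The median GC content of the window was 45.3% in distal members and 46.7% in other distal regions, and its part in these shares was not tested.

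These differences had the same sign in 4 of 4 libraries, with means of -4.30 percentage points for CTCF and -4.93 for GGGCGG (exact sign-flip permutation test, p = 0.125, adjusted p = 0.188 over 12 motifs for each). CACGTG, the E-box of MYC and related factors, was lower in members in 4 of 4 libraries (1.5% against 2.26% of distal regions, 2.48% over all), as was the ETS motif CCGGAAG (0.747% against 1.04%, 2.14% over all). TGTGGTT of RUNX (mean difference 0.474, 3.78% over all) and TGTTTAC of FOX factors (0.411, 2.24% over all) were higher in members in 4 of 4. In the pooled distal regions RUNX stood at 4.34% and 4.31% and FOX at 2.78% and 2.43%. TEAD (GGAATG) matched 11.6% against 12% of distal regions (10.8% over all), higher in members in 1 of 4 libraries, and the other ETS motif CAGGAAG 7.22% against 7.27% (6.99% over all). Grainyhead (AACNGGTT) stood at 0.801% and 0.940% (0.854% over all), the CRE TGACGTCA at 0.152% and 0.174% (0.350% over all), and the CEBP palindrome TTGCGCAA was in 0.0805% of all regions. The mask can lower only the shares of members. The sign of small differences, such as those of TEAD, CAGGAAG and grainyhead, therefore cannot be read.

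The contrasts given next were picked from 12 motifs in gained, lost and constant regions, and their intervals are not corrected for that number. RUNX matches stood out among constant members, at 7.48% (36 of 481, 5.45 to 10.2%) against 4.30% of other constant distal regions (3.47 to 5.30%). In the moved window they stood at 7.40% and 5.03%, with overlapping intervals. TEAD matches were found in 16.3% of gained distal members (48 of 295, 12.5 to 20.9%) and 11.5% of other gained distal regions (9.96 to 13.3%). In the moved window these were 13.4% and 13.8%, so the higher share was not kept. The motif of the tumour suppressor p53, by its consensus with up to 3 mismatches, matched 5 of 230 lost distal members (2.17%, 0.932 to 4.99%) and 83 of 953 lost distal regions without an AP-1 site (8.71%, 7.08 to 10.7%). In gained distal members it matched 0 of 295, which allows a share of up to 1.29% by the Wilson interval. Gained distal regions without an AP-1 site matched in 8 of 1405 cases (0.569%, 0.289 to 1.12%), a share within that limit. In the moved window the p53 shares of lost distal regions were 6.28% (3.84 to 10.1%) with and 10.7% (8.88 to 12.8%) without an AP-1 site, and these intervals overlapped. Over all regions 1.24% held a p53 match.

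By nearest protein-coding gene, the members were spread over 5111 of 20098 genes, of which 28 were nearest to 10 or more. TRIB1, which encodes a pseudokinase that scaffolds protein degradation, was nearest to 16 AP-1 regions of 39 regions in all, and TRPS1, a GATA-type repressor of transcription, to 16 of 59. PCDH7, a protocadherin, had 15 of 48 and MCTP2 14 of 50. GRID1, a glutamate receptor family gene, had 13 of 26, FAM135B 13 of 55 and KHDRBS3 13 of 59. BMP2, a bone morphogenetic protein ligand, had 12 of 33, the semaphorin SEMA5A 12 of 33 and the teneurin TENM4 12 of 50. TMEM132C (12 of 53) and TENM3 (12 of 71) had as many members as the last of these. The members of the first 10 genes lay far from the gene starts, with median distances from 115435 bp for TRIB1 to 1055556 bp for FAM135B.

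Of the 136 members of these 10 genes, 4 were gained and 4 lost (2.94% each, 1.15 to 7.32%), with the backgrounds of 3.20% and 2.14% inside the interval. TRIB1 had 2 gained, 0 lost and 1 constant member, and its members were called 1 time in MCF10A replicate 1, 9 times in MCF10A replicate 2, 4 times in G12V replicate 1 and 14 times in G12V replicate 2. MCTP2 had 0 gained and 2 lost, and TRPS1 had 3 constant members and none gained or lost. Chosen after its values were seen, SOX9, a transcription factor of mammary progenitor cells, had the most gained members, 3 of its 10, with 7 called in G12V replicate 1 against 3 in MCF10A replicate 1 and 10 against 4 in replicate 2. Of the 43 regions without a site nearest to SOX9, 3 were gained and 0 lost, and on chromosome 17 as a whole 67 regions of any kind were gained and 13 lost. FLRT3, an adhesion receptor gene, had the most lost members, 3 of its 6, with 4 against 0 in replicate 1 and 6 against 3 in replicate 2 in favour of MCF10A. Of its 22 regions without a site, 2 were lost and 1 gained.

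Within 100 kb of a protein-coding TSS, 5498 of 39792 regions (13.8%) held an AP-1 site, and the listed genes are read against that value. Of all regions 3.20% were gained, 2.14% lost and 8.36% constant. At such shares a list with few members may hold none of a class. The class counts of the lists are therefore given as description only. The AP-1 subunit genes had 9 members among 82 regions (11%, 5.88 to 19.6%), near 5 of 10 genes. JUN, the founding subunit of the dimer, had 3, of which one in an intron 56472 bp downstream stood at percentiles 80.5 in MCF10A replicate 2, 91.6 in G12V replicate 1 and 93.2 in G12V replicate 2. ATF3, a stress-induced subunit, had a constant member 79222 bp upstream, and BATF3 had 2 members. FOSB and FOSL2 had 1 each, called in G12V replicate 2 alone. FOS, FOSL1, JUNB, JUND and BATF had none, although the promoters of all but BATF were called in at least 1 library.

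Genes of RAS-ERK feedback and early response had 18 members among 117 regions (15.4%, 9.96 to 23%), near 7 of 13 genes. DUSP1, a phosphatase that inactivates MAP kinases, had 4, of which one 24463 bp upstream was gained (percentiles 12.5 and 56.8 in G12V) and one 39634 bp downstream was lost (17.9 and 11.3 in MCF10A). DUSP5, an ERK phosphatase, had 5, with a gained member 87295 bp upstream (22.9 and 65.0). All 5 were called in G12V replicate 2, and 1 in each of the other libraries. SPRED2, an inhibitor of RAS-RAF signaling, had a gained intronic member (65.9 and 31.9) and 1 other. SPRY1, IER3 and PHLDA1 had 2 each and SPRY4 had 1, none gained or lost. DUSP4, DUSP6, SPRY2, SPRED1, SPRED3 and EGR1 had none.

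The EGF receptor gene EGFR had 3 intronic members, of which one was constant at percentiles 80.5, 82.8, 52.5 and 85.3. Its ligand genes AREG and EREG shared 1 member in EREG, called in 3 libraries, HBEGF had 2 in G12V replicate 2 alone, and EGF and BTC had 1 each. TGFA had none. The list held 8 members among 50 regions (16%, 8.34 to 28.5%).

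Matrix protease genes, several of them classical AP-1 targets, had 9 members among 67 regions (13.4%, 7.23 to 23.6%), with none gained, lost or constant. With so few members this cannot be told apart from the class shares over all regions. MMP1, MMP3 and MMP10, collagenase and stromelysins of one gene cluster, shared a single member 7923 bp upstream of MMP3, at percentile 41.5 in MCF10A replicate 2 and 58.3 in G12V replicate 2. MMP13 had one called in 3 libraries. PLAUR, the urokinase receptor, had 3, and MMP9, MMP14, PLAU and TIMP1 had 1 each. MMP2 had none.

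Genes of hemidesmosomes, laminin-332 and desmosomes, which anchor basal epithelial cells, had 23 members among 117 regions (19.7%, 13.5 to 27.8%), near 12 of 13 genes, and some lay at promoters. The LAMB3 promoter member shown above had its site 722 bp upstream of the start and stood at percentiles 73.8 and 57.5 in MCF10A and 53.9 in G12V replicate 2. The promoter member of ITGB4, the beta4 integrin of hemidesmosomes, was lost, at percentiles 10.4 and 74.3 of the MCF10A lists. Constant members lay in an intron of DST (40.7 to 92.3) and upstream of the desmoplakin gene DSP (58.5 to 90.1). ITGA6, DSC3, PLEC and PKP1 had 2 members each, COL17A1, DSG3 and JUP had 1 each, and LAMA3 had none.

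Basal and cornified epithelium genes had 10 members among 47 regions (21.3%, 12 to 34.9%), none of a changed class. SPRR1B and SPRR2A, small proline-rich proteins of the cornified envelope whose genes lie close together, had 5 and 4, of which 4 were shared. One of them, 1988 bp downstream of the SPRR1B start, was called in MCF10A replicate 2 and both G12V libraries (69.5, 32.6 and 87.2). IVL, encoding involucrin, had a member 2118 bp upstream at percentiles 81.6 and 59.1 in the replicate 2 lists. KRT14, KRT16 and KRT17 shared 2 members, TGM1 had 2, and KRT5, KRT6A and LORICRIN had none.

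YAP and TEAD target genes had 10 members among 47 regions (21.3%, 12 to 34.9%), near 5 of 5 genes. CCN2, a matricellular protein, had a gained member 3528 bp upstream at percentiles 59.0 and 59.8 of the G12V lists, and 3 others. AXL, a receptor tyrosine kinase, had a gained intronic member (56.2 and 37.3). A member 26752 bp downstream of the CCN1 start was called in 3 libraries (89.3, 74.5 and 98.6), AMOTL2 had one with 2 sites, and ANKRD1 had 2 in G12V replicate 2 alone.

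Mesenchymal genes had 8 members among 53 regions (15.1%, 7.85 to 27.1%). FN1, encoding fibronectin, had a gained intronic member with 2 sites at percentiles 40.1 and 74.0 and 1 other. VIM, ZEB1, SNAI1, SNAI2, CDH2 and FBN1 had 1 each, none of a changed class, and ZEB2 and TWIST1 had none. Cytokine genes had 7 among 58 (12.1%, 5.97 to 22.9%), with 3 for CXCL8, 2 for IL6 and 1 each for CCL2 and CSF2. CXCL1, IL11, LIF, IL1A and IL1B had none. The intervals of the 9 lists all include 13.8%.

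**Figure D5:**
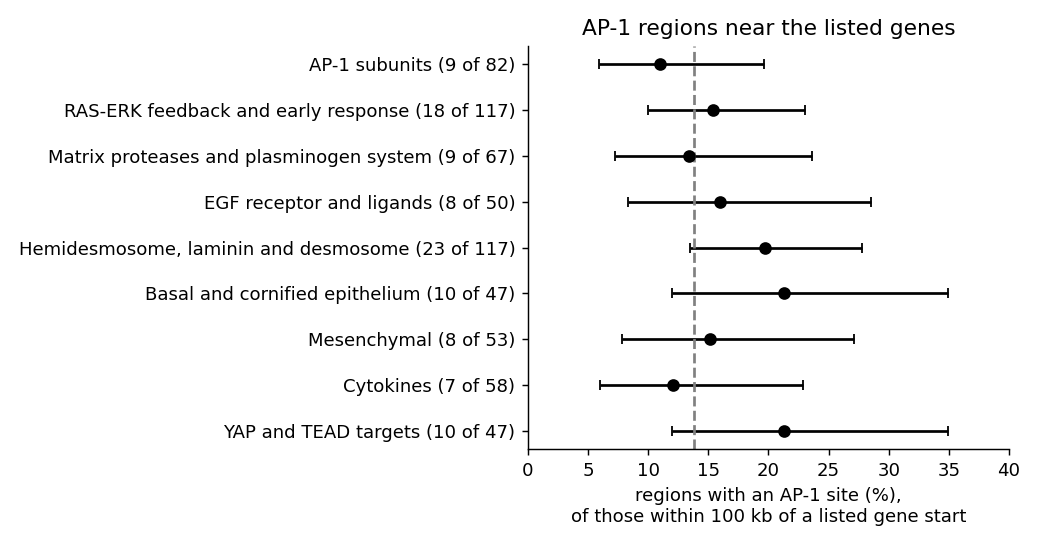
Share of the regions within 100 kb of a listed gene start that held an AP-1 site, in percent with 95% Wilson intervals, for 9 gene lists, with members of regions in parentheses; the dashed line is the 13.8% found within 100 kb of any protein-coding start. The list shares run from 11% to 21.3%, and each interval crosses the line.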

How the data were processed

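ATAC-seq peak lists of 4 libraries (2 MCF10A, 2 G12V) were used. The authors aligned reads to hg19 with bowtie 0.12.9, kept uniquely placed reads, moved read starts to the transposition centre and called peaks with MACS 1.4.2 (tag size 51, shift size 75, p 0.0001). The deposited score is 10 times the negative log10 p. It depends on depth, so scores were used only as percentiles within a list. The lists hold no reads or summits, and presence of a peak replaced the pooled read-level comparison of the study.

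Peaks on the 22 autosomes and X that overlapped by 1 bp were merged. Between 14 and 25 Y peaks per library were left out. Gene starts were the outermost starts in GENCODE release 44 mapped to GRCh37 (20098 protein-coding genes), and PECAM1 was not matched. Shares have 95% Wilson intervals and their differences Newcombe intervals. Libraries were compared by exact permutation tests. The p-values measure only the spread between these libraries. The named regions were the 5 best-ranked per class, the 3 with most sites and the listed-gene promoters called in 2 or more libraries, and the named genes the 10 nearest to most members and 9 lists. Some named items are not reported here. Members and lists were chosen with earlier results of these data known. Tools were pandas 2.3.3, statsmodels 0.14.6, scipy 1.17.1, numpy 2.4.6 and matplotlib 3.10.9 in Python 3.11.15, and merging, scans and tests were tested on simulated data. Alternatives changed list length, merging, window, motif, libraries and gene starts.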

Additional observations from a re-analysis of the deposited data

How the results depend on the processing

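The lower promoter share of AP-1 than of other regions kept its direction under all 10 alternatives run for it, between -35.0 and -24.0 percentage points, and the ratio to the control motif ranged from 3.44 to 5.82 over 3. Counts moved by construction. Keeping the 50% of peaks with better scores gave 5073 AP-1 regions, 198 gained and 142 lost. Equal lists of 12888 peaks gave 4000, with 250 gained and 260 lost, so gained members no longer outnumbered lost ones. A 300 bp window gave 16767, 545 and 375, and whole regions 22837, 760 and 528. With a peak in either library of a cell type there were 3922 gained and 1912 lost. Leaving out a library gave 349 to 3779 gained (3779 without G12V replicate 1, 910 without MCF10A replicate 2) and 245 to 1744 lost (1744 without MCF10A replicate 1, 815 without G12V replicate 2, 395 without MCF10A replicate 2).

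The gained minus lost AP-1 share was lowest at -6.43 (-7.91 to -4.93) when G12V replicate 2 was left out. It was highest at 2.76 (1.26 to 4.22) when MCF10A replicate 2 was left out. These intervals exclude 0 on opposite sides, so the sign depended on which library was left out. The difference was 0.656 with either library and 0.598 in the moved window. Equal lists gave 18.3% and 19.2%. The share difference between cell types ranged from -2.25 to 1.53 percentage points, above 0 without G12V replicate 1 (1.53) or MCF10A replicate 2 (0.920). The cause of these moves was not tested. The score percentile difference over all regions, 0.229, turned to -0.570 in 300 bp and -0.696 in moved windows. It kept its sign in 4 of 6 alternatives, with 4.04 in whole regions and 6.43 in distal regions. The distal difference was not rerun in the 300 bp or moved window. The width difference was 5.00 bp in whole regions and 4.0 bp in distal regions, against -24.8 bp.

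The replicate numbers pair the libraries only by number. With the replicate number as a block, pair 1 alone gave 1107 gained and 1078 lost AP-1 regions and pair 2 alone 3928 and 1782, with means of 2517.5 and 1430. The gained minus lost share was -1.85 (-2.99 to -0.711) and 0.561 (-0.270 to 1.38), with a mean of -0.644. The cell type difference was -0.933 and 0.179 (mean -0.377). The moved window and the restriction to distal regions were chosen after seeing the data. List length limits which loci can be called absent.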
